A study of Sus scrofa with 8 samples.

Results

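The 5 genes described here are GYS1, FDFT1, SBNO2, SYCP3 and C11orf1, which are 5 of the 458 genes that have a value in each pig and 5 of the 10710 genes for which the authors give a mean. They were chosen by their very high measured counts beside genes on the opposite strand, and each was found by its name in the table of values per pig. That table holds the genes that the authors had called different between these same animals, so that neither the level nor the breed difference of the 5 genes was tested here, and both are given as descriptions.

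The tissue was backfat, subcutaneous fat of the dorsal region, of 4 pigs of the Alentejano breed (AL) and 4 of the Bísaro breed (BI). All were purebred castrated males kept free-ranged on commercial diets, with a carcass weight of 150 kg in the labels. Each pig gave 1 stranded mRNA library, named here by its breed and animal number (AL 44, 49, 52 and 63; BI 25, 34, 36 and 37). The 458 genes together held 359708 to 883622 reads in a pig, as recovered with a step, the value of 1 read, fitted for each pig. A normalised read count is that number of reads after division by the size factor of the library. In backfat homogenates, a lower count from fewer cells of a type cannot be told apart from less RNA per cell.

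GYS1 encodes the glycogen synthase of muscle and most other tissues, which builds glycogen from UDP-glucose. FDFT1 encodes squalene synthase, the first enzyme committed to sterol synthesis, and SBNO2 a transcriptional coregulator of the anti-inflammatory response downstream of STAT3. SYCP3 encodes a structural protein of the synaptonemal complex, which joins paired chromosomes in meiosis and is known from germ cells. A stranded library keeps the strand from which an RNA was copied, so that the reads of genes that run towards each other can be separated, provided that the counting uses the strand of the library. The methods do not name that setting.

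In the RefSeq annotation of Sscrofa11.1, each of the 5 genes runs tail to tail with a protein-coding gene on the opposite strand, meaning that their 3′ ends lie within 5 kb of each other. GYS1 (ENSSSCG00000003154) lies on the minus strand of chromosome 6 from 54234600 to 54250211, and its 3′ end is separated by 1843 bases from that of FTL, the light chain of the iron store ferritin, on the plus strand from 54231121 to 54232756. A lncRNA, LOC110261018, lies on the opposite strand within GYS1 and shares 170 exon bases with it. FDFT1 (ENSSSCG00000026044) lies on the plus strand of chromosome 14 from 14976259 to 15010701, and 3437 bases separate it from the 3′ end of CTSB, a lysosomal cysteine protease. SBNO2 (ENSSSCG00000030042) lies on the plus strand of chromosome 2 from 77278059 to 77320371, and 1196 bases separate it from the 3′ end of GPX4, which reduces lipid hydroperoxides in membranes. Of these 3 genes, none shares exon bases with its protein-coding facing gene in this annotation.

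The other two genes overlap the gene that they face. SYCP3 (ENSSSCG00000000863), on the plus strand of chromosome 5 from 82492744 to 82501068, overlaps the end of CHPT1, an enzyme of phosphatidylcholine synthesis, by 144 bases, of which 54 are exonic in both. C11orf1 (ENSSSCG00000015027) was matched by name alone to C9H11orf1 of RefSeq, and its position, neighbours and values per kb rest on that match. C9H11orf1, on the plus strand of chromosome 9 from 39629921 to 39641769, overlaps CRYAB, a small heat shock protein, by 3265 bases, of which 166 are exonic in both. The start of C11orf1 also shares 67 exon bases with FDXACB1 on the opposite strand, and its end shares 161 exon bases with HSPB2 on the same strand. The Ensembl gene models with which the authors counted were not used here and may end elsewhere.

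**Figure D1:**
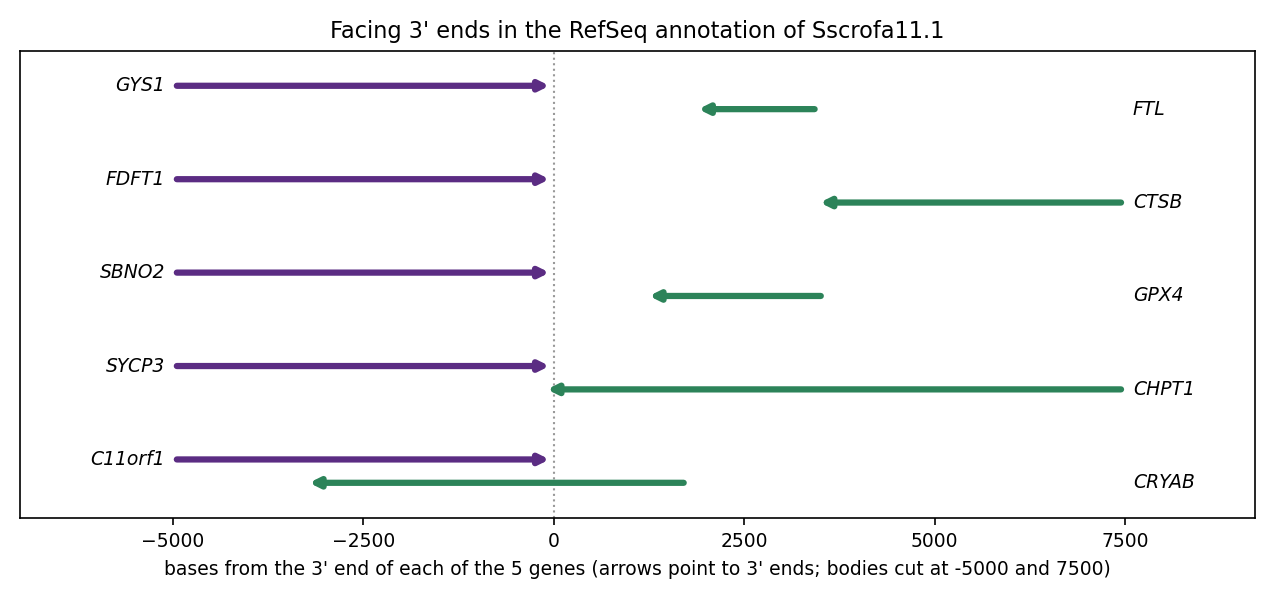
The 3′ ends of the 5 genes (upper arrow of each row, pointing to the 3′ end at 0) and of the protein-coding genes that face them (lower arrow), by distance in bases and drawn to scale, with long bodies cut at the edges. FTL, CTSB and GPX4 end 1844, 3438 and 1197 bases beyond the end of their partner, whereas the ends of CHPT1 and CRYAB lie inside SYCP3 and C11orf1.

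The last 30 bases of the RefSeq genes of 4 pairs are shown because these are the annotated ends that face each other. Each is written 5′ to 3′ on the strand of its gene. The hexamer AATAAA, the common signal for cleavage and polyadenylation, is in capitals.

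GYS1 (chr6:54234600-54234629, minus): atgaaaaaaatacatctatatttaagaata

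FTL (chr6:54232727-54232756, plus): atggaaacAATAAAagctttttgcagcaga

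FDFT1 (chr14:15010672-15010701, plus): gatttttgtAATAAAggactgaattactca

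CTSB (chr14:15014139-15014168, minus): gaacaaagtaaatacttaattttaacgtca

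SBNO2 (chr2:77320342-77320371, plus): tcttttttaaatatatgtgccttttcacta

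GPX4 (chr2:77321568-77321597, minus): cttatgggAATAAAccatacaaattggcta

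SYCP3 (chr5:82501039-82501068, plus): cgaaagtctcttcaatccatgttattctga

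CHPT1 (chr5:82500925-82500954, minus): ttcagcaAATAAAatatttcactgcttata

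AATAAA or its variant ATTAAA, searched on the strand of the gene only, was found in 4 of these 8 windows, against 54.7% of the ends of 19560 protein-coding genes. All 4 matches were AATAAA, in FDFT1 and in the 3 facing genes FTL, GPX4 and CHPT1. A window without these letters says nothing about where the transcripts end in fat. Read in codons from its first base, the SYCP3 window ends in a stop codon, without an earlier one. This gene model may therefore end with its coding part, which was not tested. The overlap of SYCP3 with CHPT1 and its exon length hold for this annotation only.

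GYS1 had the highest mean of the 458 genes, and its count exceeded that of every other one of them in each pig. Its normalised read count was 215005 in AL 44, 209617 in AL 49, 138339.6 in AL 52 and 211700.1 in AL 63. In BI 25, 34, 36 and 37 it was 57175, 104086, 92504 and 157888. BI 37 therefore lay above AL 52, so that the breeds overlapped, and AL 52 lay apart from the other 3 AL pigs. Means were 193665 ± 36951 for AL and 102913 ± 41729 for BI (SD, n = 4 each; log2 FC = 0.98, standard error 0.34, positive where AL is higher). The recovered reads behind these values numbered 74769 to 231152 per pig.

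FDFT1 had place 2 by mean among the 458 genes, with normalised read counts of 38001, 31945, 22509 and 30131 in AL 44, 49, 52 and 63. In the BI pigs, in the order above, they were 8431, 15266, 15563 and 20813. After division by the size factor, every AL pig therefore lay above every BI pig. The log2 FC was 1.08 (standard error 0.32), from means of 30646 ± 6384 for AL and 15018 ± 5077 for BI (SD, n = 4 each). As in GYS1, AL 52 was the lowest AL pig, BI 25 the lowest and BI 37 the highest BI pig.

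SBNO2, place 4 among the 458 genes, had 26221, 30803, 29142 and 30154 normalised counts in the AL pigs, the narrowest AL range of the 5 genes for its mean (coefficient of variation 6.96%). BI 25 and BI 34, with 10450.3 and 10332, lay at about the same low level, and BI 36 and BI 37, with 19834 and 20051, at about the same higher one. No BI pig reached the AL pigs. Means were 29080 ± 2025 for AL and 15167 ± 5516 for BI (SD, n = 4 each), a log2 FC of 1.01 (standard error 0.28).

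SYCP3 had 2727, 2278, 2115 and 2304 normalised counts in the AL pigs. Of the BI pigs, 3 had 467, 568 and 599, whereas BI 37 had 2199 and lay within the AL range. The SD in BI was accordingly almost as large as the mean, 958 ± 829 (n = 4), against 2356 ± 261 (SD, n = 4) in AL, and the log2 FC was 1.61 (standard error 0.52). Without BI 37 the log2 FC was 2.11. With each pig scaled to the total of the 458 genes it was 0.66. The lowest value rests on 611 recovered reads.

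C11orf1, place 7 among the 458 genes, had the largest breed difference of the 5. AL 44, 49, 52 and 63 had 26756, 25418, 17216 and 33511 normalised counts, whereas BI 25, 34, 36 and 37 had 1593, 2395, 7947 and 4123. The log2 FC was 2.90 (standard error 0.54), with means of 25725 ± 6688 for AL and 4015 ± 2826 for BI (SD, n = 4 each), and the lowest AL pig had more than the highest BI pig. The spread within BI was wide, the highest pig having 4.99 times the count of the lowest.

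**Figure D2:**
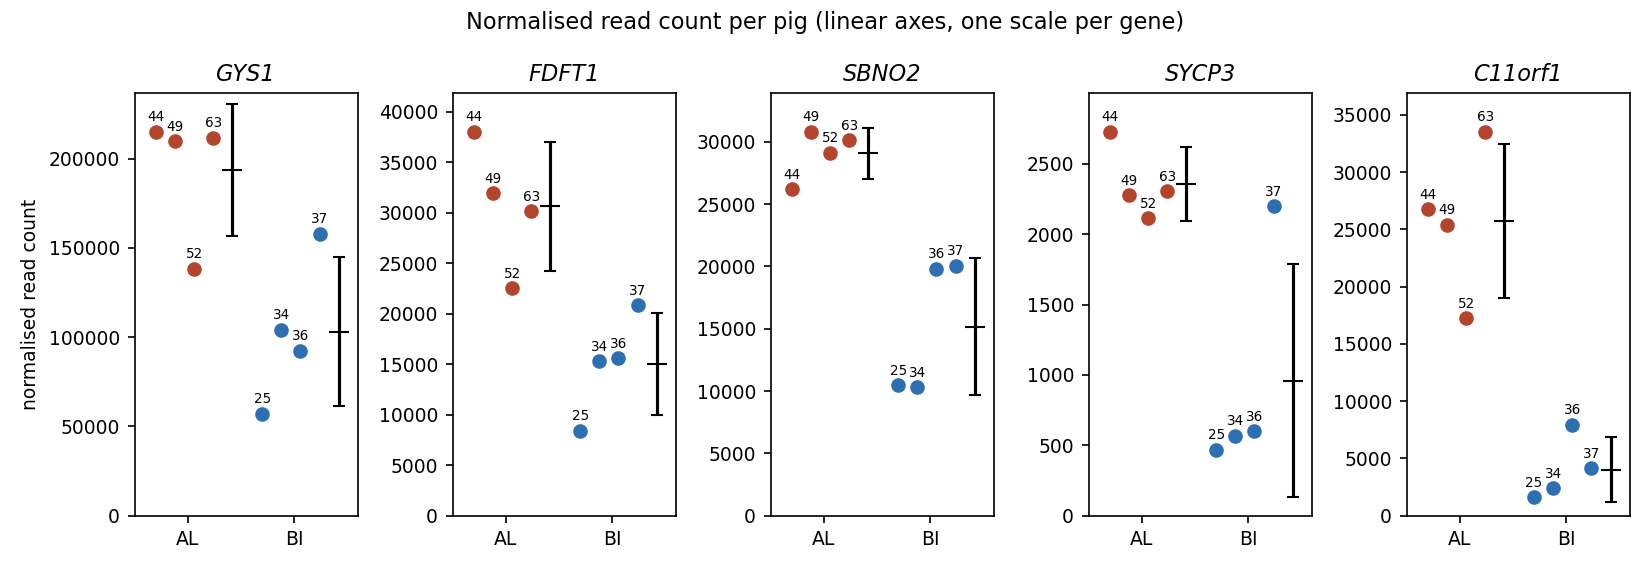
Normalised read count of each of the 5 genes in each pig (points, labelled by animal number; linear axes from 0, with a separate scale for each gene), with the mean ± SD of each breed in black (n = 4). AL 52 lies among the BI values in GYS1 and BI 37 among the AL values in SYCP3, and the breeds do not overlap in FDFT1, SBNO2 and C11orf1.

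In all, 5 of the 5 genes had a higher mean in AL, and 3 of the 5 showed no overlap of the breeds. Of all 458 genes, 79.5% had no overlap in either direction and 48.3% had no overlap with AL higher. The choice of the genes used this same contrast, so that nothing is read from the count. Without AL 52, or without BI 37, the breeds did not overlap in any of the 5 genes. The median log2 FC was 1.08 over the 5 genes, 1.09 over the 263 genes with a positive log2 FC and 0.83 over the 458.

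Scaling bore on all 5 genes. As a share of the normalised counts of all 458 genes, GYS1 took 25.8% ± 3.55 for AL and 25.3% ± 4.89 for BI (SD, n = 4 each). FDFT1 took 4.09% ± 0.763 and 3.72% ± 0.520, and SBNO2 3.91% ± 0.345 and 3.77% ± 0.685 (SD, n = 4 each), with overlapping breeds. On that scale the log2 FC was 0.04 for GYS1, 0.13 for FDFT1 and 0.07 for SBNO2, differences smaller than the spread between pigs. SYCP3 took 0.317% ± 0.0393 and 0.221% ± 0.130 (SD, n = 4 each), with overlap and a log2 FC of 0.66. C11orf1 took 3.41% ± 0.703 for AL and 0.966% ± 0.585 for BI (SD, n = 4 each), without overlap and with a log2 FC of 1.96. This scaling lowered the median log2 FC of the 458 genes by a similar amount (a shift of −0.93), and the 5 genes make up between 28.4% and 42.0% of the total by which they are divided.

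GYS1 and FDFT1 had closely similar profiles over the pigs. The difference between the log2 normalised counts of the genes, each centred on its mean, had a root mean square of 0.13 over the 8 pigs. No other named gene of the 458 was nearer to GYS1, nor to FDFT1. The median distance of all genes was 0.79 from GYS1 and 0.75 from FDFT1. These distances include the breed difference by which the 458 genes were called, so that genes with a similar log2 FC lie nearer to each other. After FDFT1, GYS1 was nearest to MTBP (0.18) and SLC35B2 (0.22), and FDFT1 was nearest after GYS1 to NELFCD (0.18) and CDC26 (0.19). SBNO2 was nearest to LRRC25 (0.09), SMPD5 (0.10) and RBM39 (0.10), SYCP3 to RNF13 (0.27), DEDD (0.32) and CNOT7 (0.34), and C11orf1 to SCD (0.44), TXNRD2 (0.53) and TMEM71 (0.53). Between GYS1 and C11orf1 the root mean square difference was 1.11.

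The counts of the facing genes were low beside those of the 5 genes. For FTL, CTSB, GPX4 and CHPT1 the authors' mean over the 8 pigs is the value used here, with no spread. It was 262 for FTL, 232 for CTSB, 108 for GPX4 and 21.6 for CHPT1, and 298 for CRYAB. Per kb of RefSeq exon, the mean normalised count was 41783 for GYS1 and 281 for FTL, so that GYS1 was 149 times higher. FDFT1, with 7309 per kb, was 91.6 times higher than CTSB, and SBNO2, with 3498 per kb, 29.0 times higher than GPX4. SYCP3, with 1459 per kb, was 109 times higher than CHPT1, and C11orf1, with 6077 per kb, 25.2 times higher than CRYAB. If the SYCP3 model lacks the part after its stop codon, its exon length is too short and its value per kb may be too high. FTL has processed copies in mammalian genomes, so that its count is uncertain, and the part of such copies in it was not tested.

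**Figure D3:**
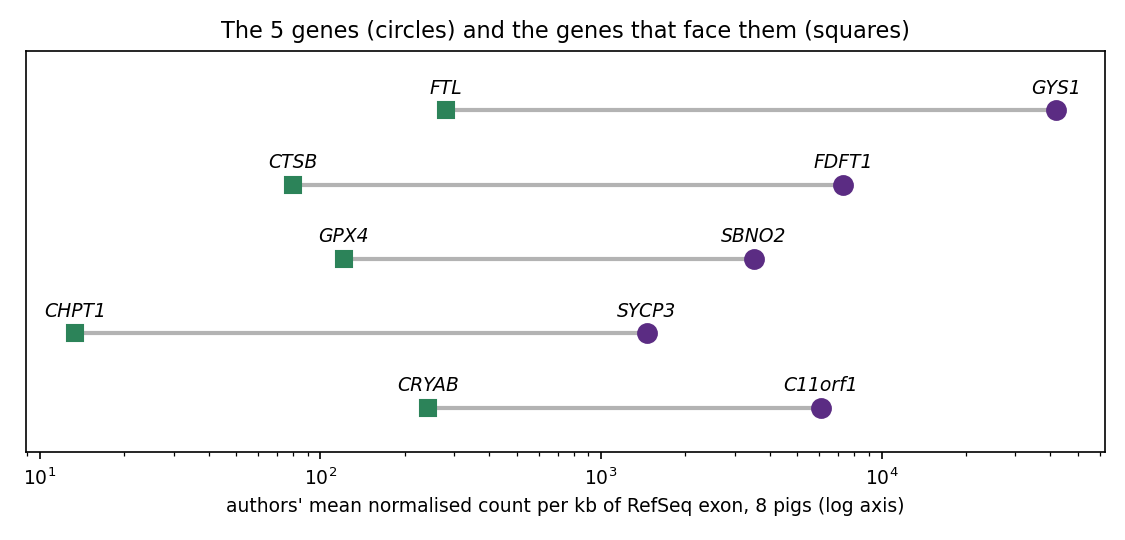
Authors' mean normalised count over 8 pigs per kb of RefSeq exon (log axis) of the 5 genes (circles) and of the genes that face them (squares), joined by a line for each pair. In every pair the square lies at the lower level, by 25.2 times for CRYAB and up to 149 times for FTL.

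At their other ends, GYS1 starts 282 bases from RUVBL2, which had a mean of 72.0, and C11orf1 overlaps FDXACB1, which had a mean of 6.36. Of the neighbours on the opposite strand within 5 kb, only LOC110261018 and the pseudogene LOC100623855 beside FDFT1 could be matched to no mean.

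CRYAB is the only facing gene with a value in each pig. Its normalised read count was 379, 449, 402 and 515 in AL 44, 49, 52 and 63, and 100.2, 135, 217 and 185 in BI 25, 34, 36 and 37. As for C11orf1, AL 63 was the highest pig, BI 36 the highest BI pig and BI 25 the lowest of all, and the breeds did not overlap (log2 FC = 1.50, standard error 0.26). The ratio of C11orf1 to CRYAB was not constant. It lay between 42.8 and 70.6 in the AL pigs and between 15.9 and 36.6 in the BI pigs. By distance between profiles, CRYAB was place 25 among the genes ranked by likeness to C11orf1 (root mean square difference 0.80).

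Genes of related function had far lower counts. As for the 5 genes, whether the mean given for a related gene or a marker holds only RNA of its own strand was not tested. Of 17 other genes of glycogen metabolism, 12 had a mean, with a median of 17.9 normalised counts. The highest was PYGB, a glycogen phosphorylase, with 533, and GYS1 exceeded it 411 times per kb. GYS2, the liver glycogen synthase, had 5.05. Of 22 other genes of sterol synthesis and its control, 17 had a mean, with a median of 7.88 normalised counts. SQLE, which acts on the product of FDFT1, had 14.5. FDFT1 exceeded SREBF2, the highest of the 15 that had an exon length, by 446 times per kb. None of the other genes of these lists was among the 458.

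For SBNO2, 7 of 10 other genes of the STAT3 axis had a mean, the highest being SOCS3 with 106. STAT3, the only one with a value in each pig, had a higher count in every BI than in every AL pig (log2 FC = −0.90, standard error 0.16), the opposite direction to SBNO2. For SYCP3, 5 of 16 other genes of meiotic chromosomes had a mean. SYCE2 had 224, and the other 4 (SYCE1, REC8, DMC1 and STAG3) had at most 16.0. The germ cell markers DDX4, DAZL, SYCP1 and SYCP2 had no mean that could be matched.

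**Figure D4:**
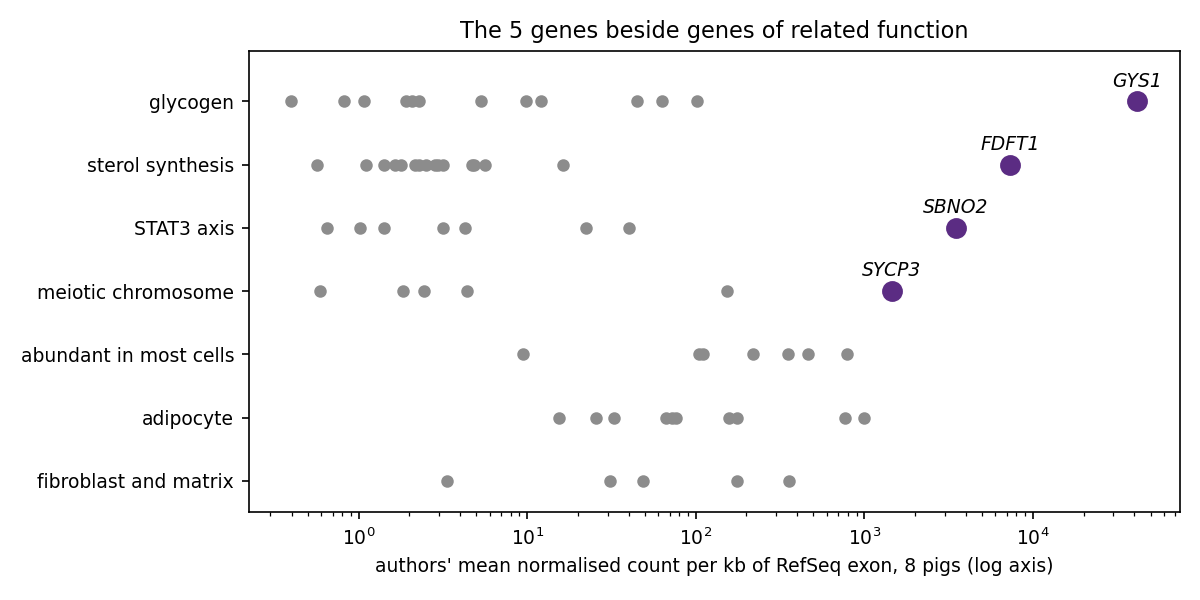
Authors' mean normalised count over 8 pigs per kb of RefSeq exon (log axis) for genes of related function and for markers of fat and of other cells (grey points, 1 per gene with a mean and an exon length), with GYS1, FDFT1, SBNO2 and SYCP3 in purple. Each purple point lies to the right of every grey point, the nearest being PLIN1 of the adipocyte list with 995 per kb.

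As for the tissue, 10 of 11 adipocyte markers had a mean, with a median of 224 normalised counts. The highest was PLIN1, which coats the lipid droplet, with 1567, and ADIPOQ, the abundant hormone of fat cells, had 173. Of the 5 genes, all but SYCP3 exceeded COL1A1, the highest of the fibroblast genes, with 2188. Of genes abundant in most cells, GAPDH had 1674 and ACTB 440. GYS1, FDFT1, SBNO2, C11orf1 and SYCP3 held places 3, 12, 14, 25 and 255 among the 10710 means, and GYS1 alone was 5.11% of their sum. That sum is far below the average number of reads per sample in the paper, so that the 5.11% is not a share of all RNA in backfat. The median of all means was 13.7.

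Tail-to-tail neighbours were common among the genes with high means. Of the 8323 genes with a mean that could be placed in RefSeq by their symbol (77.7%), 33.8% have a protein-coding gene on the opposite strand whose 3′ end lies within 5 kb of their own. Of the 25 highest means, down to that of C11orf1, 16 could be placed, and 16 of 16 have such a neighbour. Leaving out the 4 of these described here, it is 12 of 12, and 5 of the 12 facing genes code for ribosomal proteins. The share of ribosomal protein genes among all facing genes was not computed. Of these 12 facing genes, 10 have a mean, the highest being 1245, whereas the lowest mean of the 12 genes that they face is 15130.

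Over 10 classes of placed genes ordered by mean count, the share with a tail-to-tail neighbour was 18.8% in the lowest class, 49.5% in the ninth and 80.6% in the highest, which holds all 5 genes. The share with a head-to-head neighbour, an opposite-strand gene whose 5′ end lies within 5 kb, was 17.5% in the lowest and 35.0% in the highest class. These shares are descriptions over genes, which are not replicates. For 1051 tail-to-tail pairs in which both genes have a mean, the median fold between them per kb was 7.40. Of these pairs, 18.7% differed at least 50 times, against 3 of the 5 pairs described here. The 5 genes were chosen for high counts beside such neighbours, and the 1051 pairs span all levels, so that nothing is read from this comparison. Whether reads copied from FTL, CTSB, GPX4, CHPT1 and CRYAB entered the counts of the 5 genes was not tested, since reads were not analysed here, and the same holds for every other gene with a mean.

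**Figure D5:**
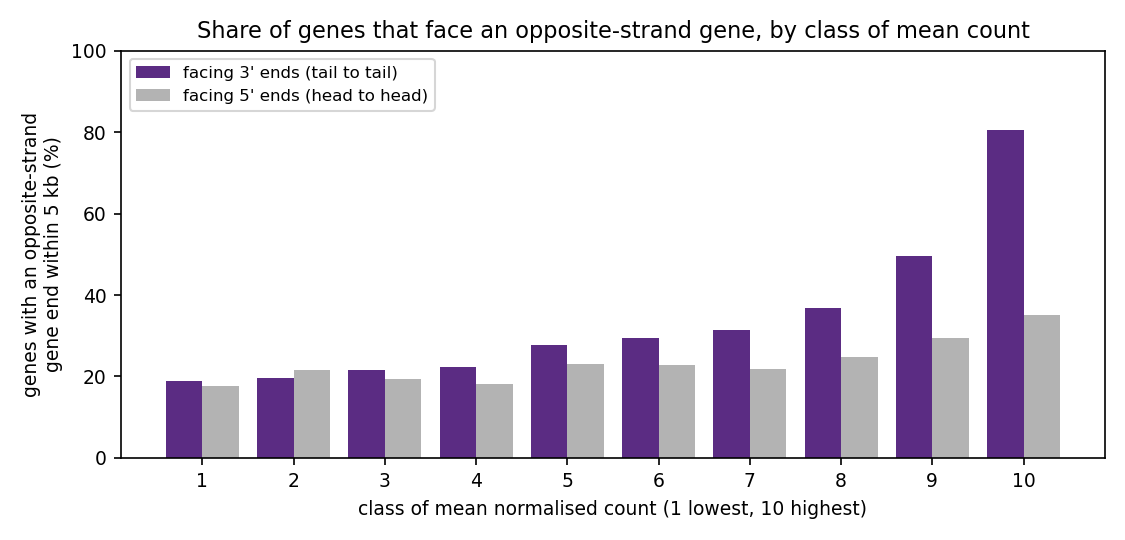
Share of placed genes in % that have an opposite-strand protein-coding gene with its 3′ end within 5 kb of their own 3′ end (purple) or its 5′ end within 5 kb of their own 5′ end (grey), in 10 classes of authors' mean normalised count with 832 or 833 genes each. The purple bars run from 18.8% in class 1 to 80.6% in class 10, and the grey bars from 17.5% to 35.0%.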

How the data were processed

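Per the submitters' processing notes, the authors used Trim Galore 0.5.0, HISAT2 2.1.0, SAMtools 1.9, HTSeq 0.11.1 and DESeq2, with Sscrofa11.1. The strand setting of the counting is not given in the sources used here. For the 458 genes that they called, the authors deposited a signal per pig, namely gene counts after division by the size factor. The authors' mean of this signal was deposited for 10710 genes. Their fold changes and p-values were not used. With a step fitted for each pig, all values were whole reads (tolerance 0.1 reads), with size factors from 0.675 to 1.46. A separate automatic check, over low values only, found no such step in most of the pigs. The recovered reads therefore serve as descriptions only, and no count model was fitted.

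The log2 FC is the difference of mean log2(normalised count + 1), AL minus BI, and understates low genes. No test was run, because the genes were chosen on this contrast. The members and gene lists were chosen with earlier results of these data known. Named genes are the 5 genes, their neighbours within 5 kb, the 3 nearest profiles of each and lists of related genes and cell markers. Symbols came from the tables pairing Ensembl identifiers with names (8955 of 10710), except that C11orf1 was matched by name alone, and exon lengths and 3′ ends from the RefSeq annotation and genome of Sscrofa11.1, the end sequences of C11orf1 and its facing gene not being reported here. Calculations were tested on simulated counts. Alternatives were other pseudocounts, scalings and summaries, and leaving out each pig. Marker lists beside those in the results had medians of 52.6 (endothelium, 4 of 5 genes with a mean), 5.85 (macrophage, 5 of 5), 5.00 (skeletal muscle, 3 of 7), 30.7 (blood, 2 of 3) and 247 (iron store, cathepsins and peroxidases, 8 of 11) normalised counts. The highest genes of these lists, in the same order, were PECAM1 (130), CSF1R (1385), CKM (987), HBB (53.4) and GPX3 (483). The low macrophage and muscle medians therefore do not hold for every marker. Python 3.11.15, NumPy 2.4.6, pandas 2.3.3 and Matplotlib 3.10.9 were used.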

Additional observations from a re-analysis of the deposited data

Results flagged for a closer look

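In 2 of 10 groups of 4 pigs examined (5 genes, 2 breeds), 1 pig lay farther from the others than Dixon's critical value for 4 samples. In GYS1, AL 52 had 138339.6 normalised counts, below the other 3 AL pigs by 0.930 of the range of the breed. In SYCP3, BI 37 had 2199 normalised counts, above the other 3 BI pigs by 0.924 of the range. Among independent groups, chance alone flags about 1 in 20. The groups here share the same pigs, and the genes were chosen on the breed contrast, so that no expected number is given.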

How the results depend on the processing

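Of 75 recomputed log2 FC of the 5 genes, 75 stayed positive, and 11 moved by more than 1 SD between pigs, each under a rescaling over the 458 genes. With a recomputed median of ratios (a shift of −0.51 in the median of all 458 genes), the log2 FC was 0.47 for GYS1, 0.56 for FDFT1 and 0.50 for SBNO2. With a recomputed upper quartile (a shift of −0.64) it was 0.33, 0.43 and 0.36. With the total of the 458 genes as the scale, chosen after seeing the data, it was 0.037, 0.13 and 0.068, and 0.66 for SYCP3 and 1.96 for C11orf1. All 3 rest on the called genes, of which more are higher in AL (263 of 458). The breeds did not overlap in 1 of the 5 genes with either the upper quartile or the total, and in 236 and 207 of the 458. Leaving out each pig gave between 3 and 5 of the 5 genes without overlap, and log2 FC from 0.73 to 1.22 for GYS1, 0.82 to 1.26 for FDFT1, 0.85 to 1.17 for SBNO2, 1.37 to 2.11 for SYCP3 and 2.55 to 3.32 for C11orf1. Per kb of exon, SBNO2 was place 10 and SYCP3 place 22 of 382 placed genes. An opposite-strand gene lay within 1 kb, or shared exon bases, for 3 of the 5 genes in place of 5 within 5 kb. The planned edgeR fit was not run, because the automatic check of low values found no step in most of the pigs. The step fitted for each pig nevertheless gave whole reads. No paired analysis was made, because the breeds are separate animals and the labels give no pairing.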
